A study of Mus musculus with 39 samples.

Results

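Mouse chromosomes 4 and 16 are described here through the genes whose RNA level held steady while wild-type C2C12 myoblasts differentiated, and through the ratio of their levels in Flnc knockout cells to those in wild-type cells. A gene was a member if it was protein-coding, lay on chromosome 4 or 16 of the GRCm38 build, had a wild-type group mean of at least 5 CPM (a gene's count scaled by the library's total count, on the usual CPM scale) on each of the 5 days, and had a largest wild-type day mean at most 1.5 times the smallest. These limits left 347 members of the 20960 protein-coding genes in the table, 227 of the 1271 on chromosome 4 and 120 of the 636 on chromosome 16. Wild-type levels chose the members, and the chromosomes were picked with earlier results of these data known, so the medians along each chromosome are given as descriptions without a test. RNA was measured; DNA copy number was not analysed here.

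C2C12 is an established mouse myoblast line that fuses into myotubes when serum is withdrawn. The wild-type (WT) line was compared with FlncKO-C2C12 (KO), made with a CRISPR/Cas9 guide against the first exon of Flnc, the gene of the actin cross-linker filamin C; whether the KO line is 1 clone is not stated in the labels. Both lines grew in DMEM with 10% fetal bovine serum and were moved to medium with 2% horse serum, and RNA was taken at day 0 and after 1, 2, 4 and 6 days. The design gives 10 groups by line and day, with 4 libraries apiece numbered 1, 3, 4 and 5, except that KO day 2 had 3 (no number 4); 39 libraries of poly(A) RNA were thus used. The labels do not say that numbers mark separate cultures, so p-values measure the spread between these libraries, which may be technical.

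In most genes the amount of RNA follows the number of gene copies loosely, so a gain or loss of a chromosome or of a stretch of it tends to shift many neighbouring genes the same way, while regulation of single genes moves them one at a time. Long-cultured lines often carry such gains and losses. Many steadily expressed genes serve every cell, in protein turnover, transcription or transport, and follow myotube formation less closely than muscle genes do.

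4 promoters mark the places on chromosome 16 that the results turn on, and are shown so that the position and the base composition of these genes can be seen. Arl13b and Cggbp1 are the members on either side of the place where the KO to WT ratio drops, Klhl22 is the member with the highest ratio before the drop, and Gbe1 is the member with the lowest after it. Each is the RefSeq stretch of 300 bases around the gene's start on GRCm38.p6, printed 5′ to 3′ on the gene's strand with CG in capitals: chr16:17759371-17759670 on the plus strand for Klhl22 (ENSMUSG00000022750), chr16:62846991-62847290 on the minus strand for Arl13b (ENSMUSG00000022911), chr16:64851751-64852050 on the plus strand for Cggbp1 (ENSMUSG00000054604) and chr16:70313699-70313998 on the plus strand for Gbe1 (ENSMUSG00000022707).
Klhl22: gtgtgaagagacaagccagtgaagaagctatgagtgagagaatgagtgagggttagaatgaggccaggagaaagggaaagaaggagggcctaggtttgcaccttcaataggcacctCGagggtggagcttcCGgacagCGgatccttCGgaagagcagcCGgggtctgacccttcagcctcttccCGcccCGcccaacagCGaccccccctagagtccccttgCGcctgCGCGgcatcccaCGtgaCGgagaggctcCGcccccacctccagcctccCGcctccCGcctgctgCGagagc
Arl13b: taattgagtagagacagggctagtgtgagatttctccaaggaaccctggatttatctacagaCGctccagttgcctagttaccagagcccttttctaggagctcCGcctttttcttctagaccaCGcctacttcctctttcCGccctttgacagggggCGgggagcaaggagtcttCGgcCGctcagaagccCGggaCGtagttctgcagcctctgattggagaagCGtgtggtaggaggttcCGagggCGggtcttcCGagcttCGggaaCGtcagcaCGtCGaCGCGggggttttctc
Cggbp1: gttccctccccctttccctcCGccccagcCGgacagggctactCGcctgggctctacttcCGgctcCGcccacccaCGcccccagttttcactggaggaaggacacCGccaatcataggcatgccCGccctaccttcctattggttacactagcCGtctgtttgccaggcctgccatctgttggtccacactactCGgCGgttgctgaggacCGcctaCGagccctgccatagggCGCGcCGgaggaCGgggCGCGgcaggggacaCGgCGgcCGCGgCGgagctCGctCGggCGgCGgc
Gbe1: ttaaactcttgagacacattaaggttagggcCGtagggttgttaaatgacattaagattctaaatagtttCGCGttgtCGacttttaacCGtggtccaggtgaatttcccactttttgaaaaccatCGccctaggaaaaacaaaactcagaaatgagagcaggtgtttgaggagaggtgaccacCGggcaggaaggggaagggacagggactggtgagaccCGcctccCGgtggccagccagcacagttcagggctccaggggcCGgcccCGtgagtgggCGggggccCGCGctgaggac
CG reads the same on both strands. It occurs 17 times in the Klhl22 promoter, 19 times in that of Arl13b, 28 times in that of Cggbp1 and 14 times in that of Gbe1. Of the 32815 promoters of this length in the table, 31.4%, 28.0%, 14.2% and 36.3% hold at least as many. For a member with several promoters, the highest count of CG was taken. By this measure the median was 24.0 CG for the 89 of 101 matched members before the drop. It was 25.0 for the 16 of 19 matched members after the drop, so these counts were similar on either side. They are not of like kind with the counts of single promoters above. Only 175 of the 227 members of chromosome 4 matched a promoter, too few for a summary.

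Library totals ran from 6838281 to 28902526 counts. Flnc was lower in every KO library than in every WT library (16.0 to 158.9 CPM against 419.1 to 2207 CPM; edgeR log2 difference -3.97 ± 0.15 (SE), adjusted p = 3.46e-19), and within each KO number its highest value was between 118.7 and 158.9 CPM. Of the myoblast markers, Des had medians of 2626 CPM in WT and 2487 CPM in KO, Itga7 1623 and 517.9, Cdh15 664.3 and 392.2, Myf5 64.1 and 30.0, Myod1 125.0 and 236.3 and Pax7 1.24 and 1.57. Myog, a driver of myocyte differentiation, had 559.2 and 116.2 CPM. Of the other differentiation markers, Acta1 had 1863 and 338.0 CPM, Myh3 904.3 and 98.6, Mymk 647.0 and 61.9 and Ckm 136.8 and 15.7. Tnnt1 went the other way, with 157.3 and 213.2 CPM. Of the blood and epithelial markers, Cd3e, Hbb-bs and Epcam were at 0 counts in all 39 libraries and Ptprc and Krt18 had medians of 0, but Cd68 had medians of 3.15 CPM in WT and 1.43 CPM in KO and Cdh1 2.49 and 0.10 CPM. Of the endothelial markers, Pecam1 and Cdh5 had medians of 0 in both lines, and Tek had 0.51 CPM in WT and 0 in KO. Of the neural markers, Rbfox3 had medians of 0, but Syn1 had 29.05 and 31.39 CPM and Tubb3 69.34 and 10.24 CPM. The part of these markers in the ratios of the members was not tested. In bulk RNA of this kind, fewer cells of a type and less RNA per cell cannot be told apart. WT day 0 replicate 4 and KO day 1 replicate 3 stood apart from the other libraries of their groups: the median steady gene of the other autosomes lay at -0.20 and -0.27 on the log2 scale against the WT mean of the day, and results are given with and without these 2 libraries.

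Steady genes of chromosomes 16 and 4 had the highest and the second highest KO to WT ratios of the 19 autosomes. For each gene, the ratio is the log2 of the KO over the WT mean CPM, averaged over the 5 days, less the median of the 2895 steady genes of the other 17 autosomes (a shift between -0.04 and 0.04 on any day). The median of chromosome 4 was 0.40, a linear ratio of 1.32, with the middle 50% of members between 0.20 and 0.55, and 209 of 227 members (92.1%) lay above 0. The median of chromosome 16 was 0.62, a linear ratio of 1.53, with the middle 50% between 0.31 and 0.86, and 104 of 120 members (86.7%) lay above 0. Medians of the other autosomes ran from -0.33 on chromosome 13 to 0.22 on chromosome 11, and 51.9% of their steady genes lay above 0. Without the 2 libraries that stood apart, the medians were 0.39 for chromosome 4 and 0.60 for chromosome 16.

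**Figure D1:**
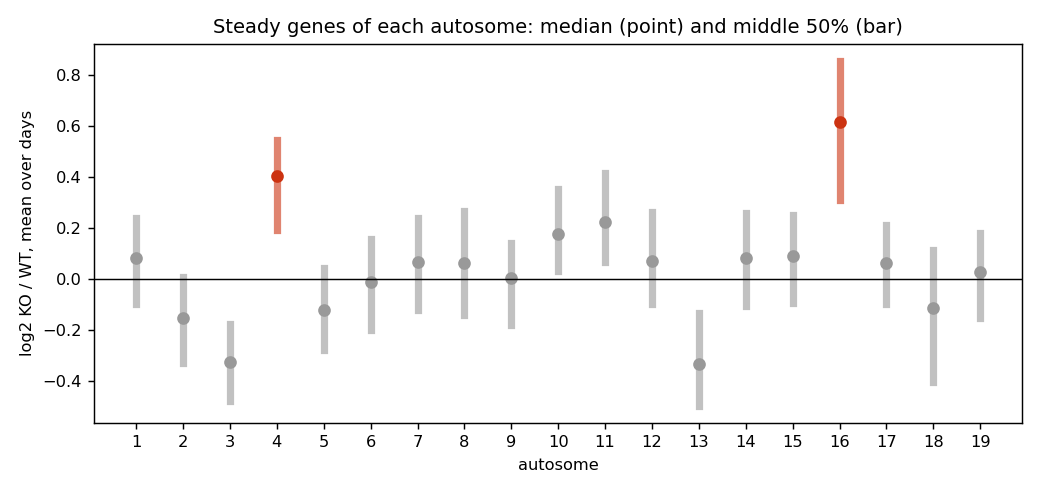
Median (point) and middle 50% (bar) of the log2 KO to WT ratio, mean over 5 days, of the steady genes of each autosome (x axis). Chromosomes 4 and 16 are in red, with medians of 0.40 and 0.62; the other 17 medians lie between -0.33 and 0.22.

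The whole-chromosome medians were of like size on all 5 days. On days 0, 1, 2, 4 and 6 the median of chromosome 4 was 0.36, 0.39, 0.39, 0.34 and 0.34, and that of chromosome 16 was 0.61, 0.64, 0.62, 0.55 and 0.62. It was present in growing myoblasts and after 6 days in low serum. Highly and weakly expressed members both showed it: on chromosome 4 the median was 0.48, 0.40 and 0.32 in members of low, middle and high mean CPM (3 groups of like size), and on chromosome 16 it was 0.62, 0.71 and 0.56.

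Along chromosome 4 the raised ratio extended from the first member to the last. A least-squares partition of the members in order of position found 1 segment, from Tmem68 (start 3549041) to Sdf4 (end 156013610), for the mean and on each of the 5 days. In stretches of 10 Mb with at least 5 members, the median ran from 0.12 (50 to 60 Mb) to 0.56 (80 to 90 Mb), and all such stretches were above 0. Ratios near the centromeric end were lower than those further on. With a smaller penalty for a break the chromosome split after Tmem245 into 63 members with a median of 0.25 and 164 members with a median of 0.43. Tmem68 itself, a transmembrane protein gene, was nearly level, with 10.3 to 30.2 CPM in WT and 12.0 to 32.2 CPM in KO libraries and a ratio of 0.05; its edgeR log2 difference of 0.01 changed sign in several alternatives. Sdf4, a gene of a calcium-binding protein of the Golgi, lay at 123.3 to 246.0 CPM in WT and 189.6 to 421.5 CPM in KO (ratio 0.56; edgeR adjusted p = 3.07e-05).

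Chromosome 16 broke into a long raised stretch and a short stretch that was not raised. The first held 101 members, from Zfp597 (start 3858321) to Arl13b (end 62847040), with a median ratio of 0.66, a linear ratio of 1.58, and 99 of 101 members above 0. The second held 19 members, from Cggbp1 (start 64851996) to Zbtb21 (end 97962622), with a median of -0.18, a linear ratio of 0.89, and 5 of 19 above 0. The drop of 0.83 between them was larger than the largest step between neighbouring segments on another autosome, 0.53, and 12 of the other 17 autosomes had 1 segment. A break between Arl13b and Cggbp1 was found on every one of the 5 days; day 6 alone had 2 further breaks inside the first stretch, which gave 4 segments. In 10 Mb stretches before the drop the median ran from 0.56 (50 to 60 Mb) to 0.77 (0 to 10 Mb), and it was -0.31 at 80 to 90 Mb and -0.18 at 90 to 100 Mb. Without the 2 libraries that stood apart, the medians before and after the drop were 0.64 and -0.17. The stretch after the drop was lowest on day 0 and came nearer to 0 later: its median was -0.42, -0.23, -0.18, -0.07 and -0.05 on days 0, 1, 2, 4 and 6. Over the mean of days it was -0.10 without KO number 3.

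**Figure D2:**
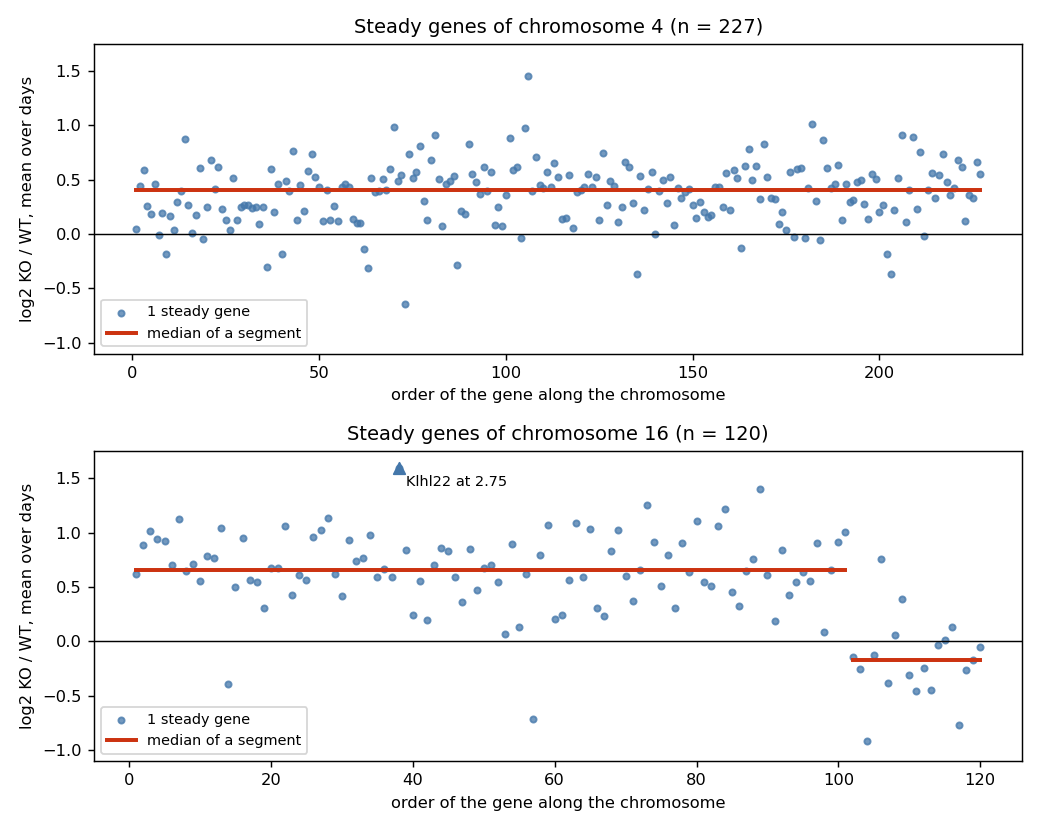
Log2 KO to WT ratio, mean over 5 days (y axis), of each of the 227 members of chromosome 4 and the 120 members of chromosome 16 (points) in order along the chromosome (x axis), with the segment medians as red lines; the triangle is Klhl22, beyond the axis at 2.75. Chromosome 4 has 1 segment at 0.40; chromosome 16 steps from 0.66 to -0.18.

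The interval that holds the drop is 2.0 Mb long and has no member inside it. Genes there that missed the member limits were taken by position. Just before the interval, Nsun3, which encodes an RNA methyltransferase of mitochondria, had a ratio of 0.92, and Arl13b, a small GTPase of cilia, had 1.00. Pros1, the gene of anticoagulant protein S, starts right after Arl13b and had a ratio of 2.12 (mean over days 12.6 CPM in WT and 48.4 CPM in KO). Epha3, an ephrin receptor gene further on, was barely expressed in WT (0.10 against 0.64 CPM), too little to place it on either side. The next 2 genes, 4930453N24Rik and Zfp654, were at -0.24 and -0.05, and the members Cggbp1 and Chmp2b at -0.15 and -0.25. The last gene with a high ratio before the drop was thus Pros1 (end 62929346). The next gene placed by its level, 4930453N24Rik (start 64751751), was not high. Pros1 was not a member, and its ratio was 1.37, 1.88, 2.21 and 2.73 in KO numbers 1, 3, 4 and 5. It was thus high in number 1 too, where most of the raised stretch was not. Whether Pros1 belongs to the stretch was not tested. Not every gene before Pros1 was high: Crybg3, before Arl6 (start 59612949), had a ratio of -0.63 (8.93 CPM in WT and 6.10 CPM in KO; edgeR adjusted p = 0.000496) and was below 0 in all 4 KO numbers.

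Arl13b and Cggbp1 show the contrast in single libraries. Arl13b had 7.48 to 28.2 CPM in WT libraries (median 21.9) and 19.2 to 61.2 CPM in KO libraries (median 44.6), and the lines did not overlap on 2 of 5 days (edgeR log2 difference 0.96 ± 0.15 (SE), adjusted p = 3.73e-07). Cggbp1, which encodes a protein that binds CGG repeats, had 70.1 to 178.6 CPM in WT (median 129.5) and 80.4 to 152.1 CPM in KO (median 119.8), and the groups overlapped on every day (edgeR log2 difference -0.19 ± 0.09 (SE), adjusted p = 0.0783). Cggbp1 was called lower in 10 alternatives, among them DESeq2 (adjusted p = 0.0469) and the fit without WT day 0 replicate 4 and KO day 1 replicate 3 (edgeR log2 difference -0.24, adjusted p = 0.0122). Chmp2b, a gene of the membrane-cutting ESCRT-III complex, was lower in KO by a small margin (41.7 to 113.8 CPM in WT, 39.8 to 93.0 CPM in KO; edgeR log2 difference -0.30 ± 0.09 (SE), adjusted p = 0.00732).

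The 4 KO replicate numbers differed widely on chromosome 16 before the drop, and hardly on chromosome 4. Medians of single libraries were taken against the WT mean of the day, or, for a WT library, against the other WT libraries of that day. Before the drop, KO number 1 gave 0.12, 0.12, 0.08, 0.23 and 0.16 on days 0, 1, 2, 4 and 6, a linear ratio of 1.06 to 1.17. Number 3 gave 0.80, 0.70, 0.83, 0.70 and 0.87, and number 4 gave 0.80, 0.86, 0.64 and 0.65 on days 0, 1, 4 and 6, linear ratios of 1.62 to 1.83 and 1.55 to 1.81. Number 5 gave 0.93, 0.91, 0.97, 0.90 and 0.93, a linear ratio of 1.86 to 1.96. Each library of KO number 1 was thus below each library of the other numbers. Number 1 lay above the highest WT library of the day on days 1, 4 and 6 (0.04, 0.15 and 0.03) and below it on days 0 and 2 (0.14 and 0.10). WT libraries ran from -0.25 to 0.15 over all days.

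**Figure D3:**
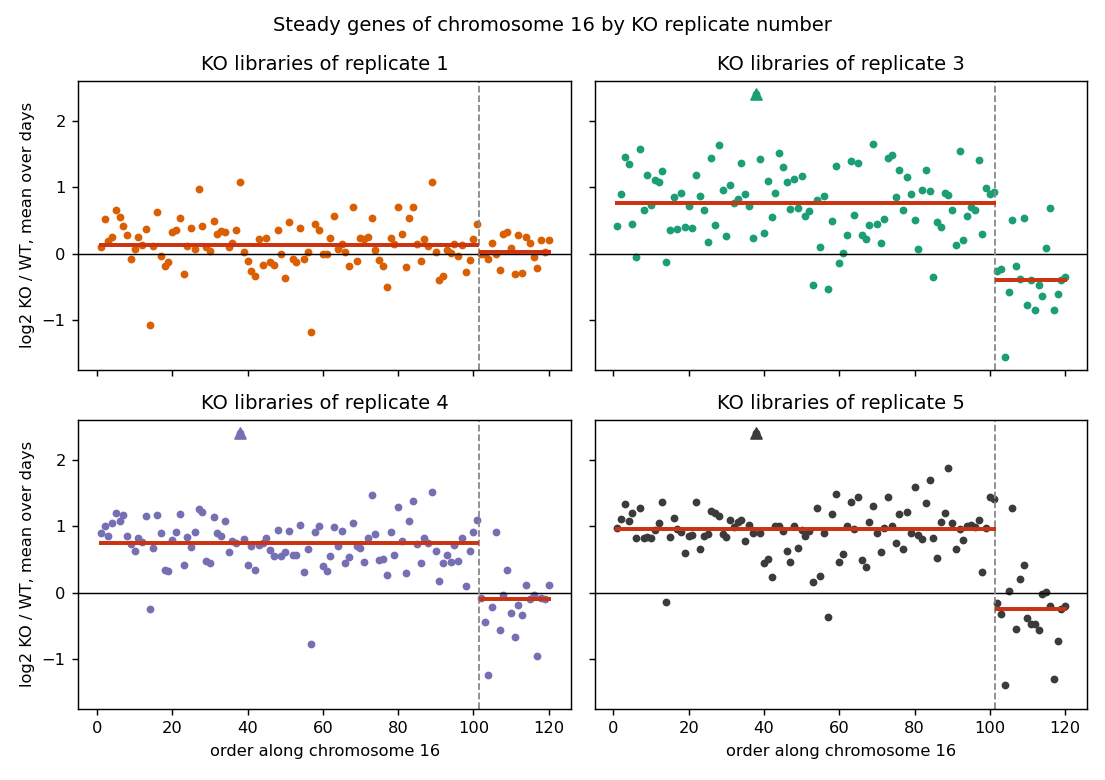
Log2 KO to WT ratio, mean over days (y axis), of each of the 120 members of chromosome 16 (points) in order along the chromosome (x axis), with the KO libraries of 1 replicate number in each of the 4 panels; red lines are the medians before and after the dashed line, which marks the drop, and triangles are Klhl22, beyond the axis. Numbers 3, 4 and 5 step down from 0.76, 0.74 and 0.96; number 1 stays near 0.12.

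On chromosome 4 the same libraries stood close together. KO number 1 ran from 0.28 to 0.34, number 3 from 0.36 to 0.41, number 4 from 0.30 to 0.38 and number 5 from 0.38 to 0.43, while the 20 WT libraries ran from -0.06 to 0.06. All 19 KO libraries were thus above all WT libraries, by more than the spread within either line. The range over KO numbers of the mean of a number's libraries was 0.09 on chromosome 4 and 0.79 on chromosome 16 before the drop. On the other autosomes it was 0.02 to 0.30, the highest being chromosome 2. Over WT numbers it was 0.05, 0.12 and 0.02 to 0.26, and 0.02 on chromosome 2. There too KO number 1 stood apart, with a mean of 0.03 against -0.21, -0.18 and -0.27 in numbers 3, 4 and 5. After the drop on chromosome 16, KO libraries ran from -0.62 to 0.33 and WT libraries from -0.48 to 0.30.

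**Figure D4:**
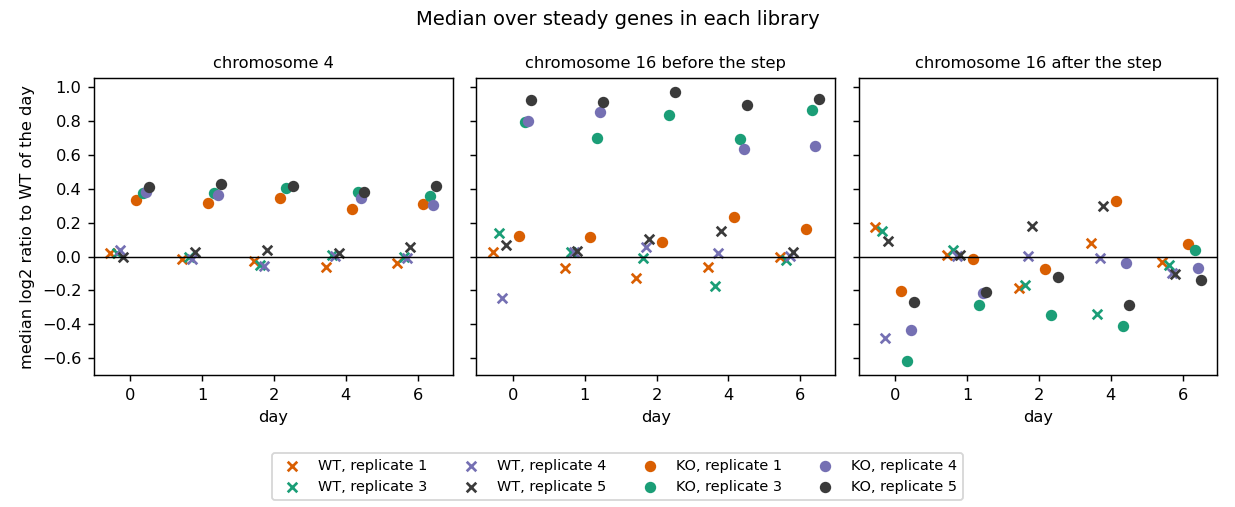
Median log2 ratio to the WT of the day (y axis) in each of the 39 libraries by day (x axis), with 1 panel each for chromosome 4 and for chromosome 16 before and after the drop; crosses are WT, circles KO, and colour is the replicate number. On chromosome 4 the 19 KO libraries lie at 0.28 to 0.43 and the 20 WT libraries at -0.06 to 0.06, with no overlap.

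Each on its own, KO numbers 3, 4 and 5 each broke between Arl13b and Cggbp1, with medians of 0.76, 0.74 and 0.96 before and -0.40, -0.10 and -0.25 after it. KO number 1 gave 1 segment for the whole of chromosome 16, with a median of 0.12. Comparing KO libraries with each other uses no WT value, although the break itself was placed from ratios that include these libraries. All 101 members before the drop were higher in number 4 than in number 1, and all 101 higher in number 5 than in number 1, as means over shared days, with median log2 differences of 0.59 and 0.80. Number 3 was higher than number 1 for 88 of 101 members (87.1%; median 0.68). For steady genes of the other autosomes these shares were 51.8%, 50.8% and 53.1%. On chromosome 4 they were 56.8%, 66.5% and 54.2%, and after the drop 2, 2 and 4 of 19 members. Numbers 4 and 5 also differed before the drop (82 of 101 higher in number 5; median 0.17). Without the libraries of KO number 1 the median before the drop was 0.80, and without those of numbers 3, 4 or 5 it was 0.66, 0.63 or 0.58; these sets were chosen after the values were seen. Flnc was low in every KO number, number 1 included (26.1 to 118.7 CPM). The labels give no date, passage or culture for a number, and what separates number 1 was not tested.

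Genes of the first stretch show this spread by number. The edgeR test counts libraries of the same number on different days as independent, so the SE and p-values of such genes can be too small. Klhl22, an adaptor of a CUL3 ubiquitin ligase, had the highest ratio of all members, 2.75: 3.16 to 14.9 CPM in WT libraries, 18.8 to 23.8 CPM in KO number 1, 74.8 to 91.5 CPM in number 3, 51.9 to 82.5 CPM in number 4 and 72.1 to 95.4 CPM in number 5 (edgeR log2 difference 2.71 ± 0.28 (SE), adjusted p = 9.93e-12). Every KO library, number 1 included, was above every WT library. Ube2l3, a ubiquitin-conjugating enzyme, had 118.5 to 186.1 CPM in WT and 137.4 to 166.7, 205.9 to 308.6, 203.4 to 220.6 and 192.2 to 272.8 CPM in KO numbers 1, 3, 4 and 5 (edgeR log2 difference 0.55 ± 0.09 (SE), adjusted p = 3.82e-06). Its KO number 1 libraries fell inside the WT range and all others above it. Gtf2e1, a subunit of the general transcription factor TFIIE, had 23.4 to 43.3 CPM in WT and 32.1 to 47.5, 67.7 to 87.5, 51.5 to 74.2 and 70.3 to 89.6 CPM in those numbers.

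In 6 members of chromosome 16 the KO libraries were above all WT libraries of the day on all 5 days. The same count was not made for genes other than members, so it is not a result about the members. Poglut1, Parn, Ufd1 and Wdr53 were, with Klhl22, among these 6, and these names were chosen after the values were seen. Poglut1, which adds O-glucose to Notch receptors, had 41.8 to 71.5 CPM in WT and 75.8 to 153.0 CPM in KO (ratio 1.06; edgeR adjusted p = 1.83e-11). Every KO library of Poglut1 was thus above every WT library over the whole course. Parn, a poly(A) ribonuclease, Ufd1, a cofactor of the segregase p97, and Wdr53 had ratios of 1.06, 0.71 and 1.09.

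Among the high ratios of the first stretch, Phldb2, which anchors microtubules at the cell cortex, reached 1.41 (79.2 to 331.5 CPM in WT, 153.9 to 992.9 CPM in KO), and Itgb5, an integrin subunit, reached 1.26 (164.6 to 388.1 CPM in WT, 236.2 to 964.6 CPM in KO). Both overlapped between the lines on 2 of 5 days. Ccdc191 and Mzt2, a gene of the γ-tubulin ring complex, were at 1.22 and 1.14. The 2 members of the stretch that were called lower were Ppp1r2, an inhibitor of protein phosphatase 1 (72.5 to 245.6 CPM in WT, 58.6 to 134.4 CPM in KO; ratio -0.72; edgeR adjusted p = 2.01e-06), and Carhsp1, an RNA-binding protein (193.2 to 373.4 CPM in WT, 112.9 to 266.6 CPM in KO; ratio -0.40; edgeR adjusted p = 0.00138). Carhsp1 was lowest in KO number 1, at 112.9 to 142.5 CPM, below every other library.

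After the drop, Gbe1, the glycogen branching enzyme, had the lowest ratio of the chromosome, -0.92. It had 19.2 to 53.3 CPM in WT libraries and 23.4 to 63.8, 7.41 to 21.6, 9.02 to 37.4 and 10.4 to 19.2 CPM in KO numbers 1, 3, 4 and 5 (edgeR log2 difference -0.97 ± 0.18 (SE), adjusted p = 1.90e-05). KO number 1 lay in the WT range of the day on days 0 and 2. On day 1 it lay below the WT libraries of that day (23.4 against 38.2 to 53.3 CPM). On days 4 and 6 it lay above every WT library (63.8 and 60.3 CPM). All libraries of number 5 and all but 1 of number 3 lay below every WT library. Cbr1, a carbonyl reductase, Cct8, a subunit of the TRiC chaperonin, and Il10rb, a cytokine receptor chain, had ratios of -0.77, -0.46 and -0.45 and were called lower. Usp25, a deubiquitinase, and N6amt1, a methyltransferase, were the 2 members of the stretch called higher, at 0.75 and 0.39, and were named after the values were seen. Son, a nuclear speckle protein, and Atp5o, a subunit of ATP synthase, were at -0.03 and 0.13 with wide overlap (edgeR adjusted p = 0.619 and 0.629), and both changed sign in an alternative.

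Chromosome 4 held 6 members whose KO and WT libraries did not overlap on any day. That count, too, was not made for genes other than members and is not a result about the members. Hp1bp3, a protein related to linker histones, had 150.2 to 224.8 CPM in WT and 232.4 to 319.7 CPM in KO, so that its lowest KO library was above its highest WT library over the whole course (ratio 0.60; edgeR adjusted p = 3.11e-10). Gne, of sialic acid synthesis, Oma1, a mitochondrial protease, Cpt2, of fatty acid import into mitochondria, and Atpaf1, an ATP synthase assembly factor, were also among these 6, with ratios of 0.77, 0.53, 0.61 and 0.89. These names too were chosen after the values were seen. Atp6v1g1, a subunit of the vacuolar proton pump, had 164.2 to 312.9 CPM in WT and 263.3 to 718.7 CPM in KO, without overlap on 4 of 5 days (edgeR log2 difference 0.95 ± 0.12 (SE), adjusted p = 1.77e-08).

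The highest ratio of chromosome 4 was that of Pik3r3 (ENSMUSG00000028698), a regulatory subunit of PI3-kinase, at 1.46. WT means were 51.0 ± 20.5, 63.5 ± 9.71, 53.4 ± 25.0, 59.0 ± 12.9 and 63.2 ± 2.96 CPM on days 0, 1, 2, 4 and 6 (SD, n = 4). KO means were 70.2 ± 35.5, 117.8 ± 42.0, 161.6 ± 20.7, 258.4 ± 46.0 and 290.4 ± 17.2 CPM (SD, n = 4, and 3 on day 2). The groups overlapped on days 0 and 1 and were apart from day 2 on, and the log2 ratio went from 0.50 at day 0 to 2.18 at day 6. Akr7a5, an aldo-keto reductase, Lurap1 and Per3, a clock gene, followed with ratios of 1.01, 0.98 and 0.91. The lowest were Zdhhc21, a palmitoyltransferase (17.4 to 76.4 CPM in WT, 11.5 to 52.4 CPM in KO; ratio -0.64; edgeR adjusted p = 0.000648), then Lzic, AU040320, Tmem245 and Kif24, a kinesin, at -0.37, -0.37, -0.31 and -0.30. Kif24 (edgeR adjusted p = 0.0414) lost its call in many alternatives, down to an adjusted p of 0.143 without KO number 1.

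**Figure D5:**
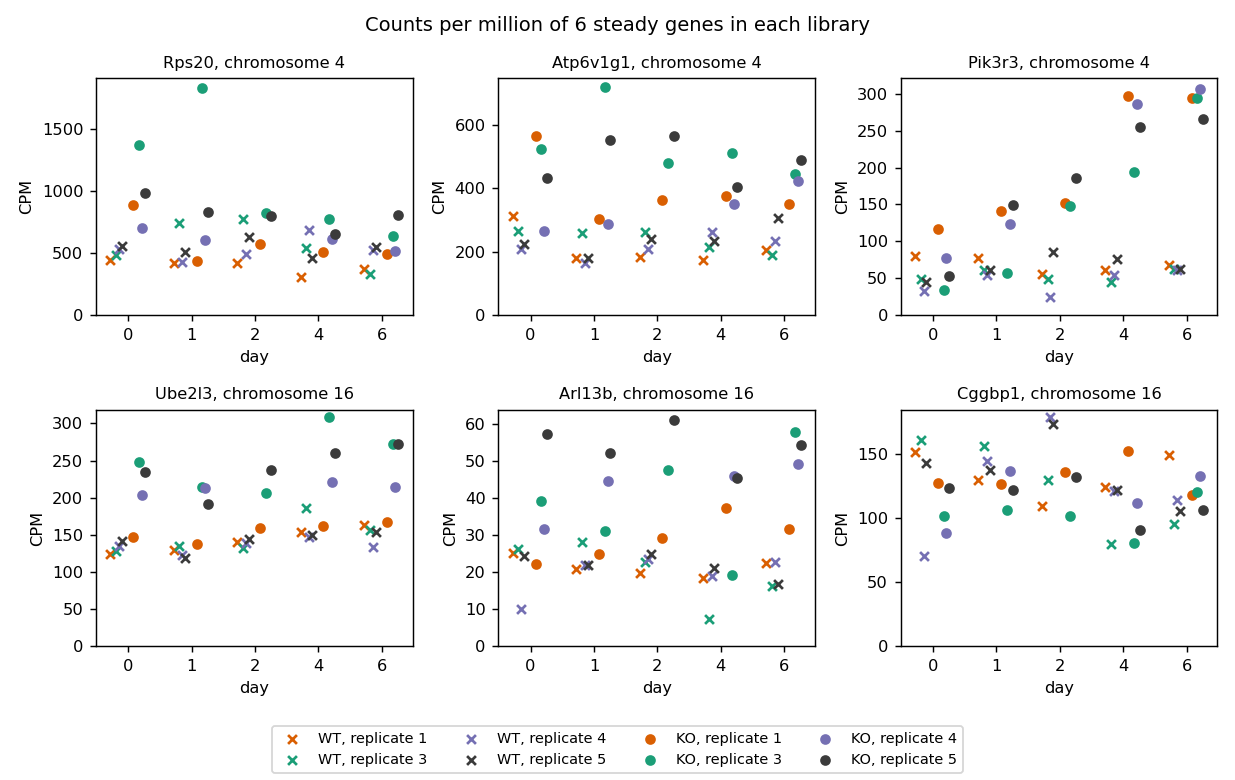
CPM (y axes, from 0) of 6 members in each library by day (x axes), with WT as crosses, KO as circles and the replicate number as colour. Ube2l3 and Arl13b of the first stretch of chromosome 16 have KO number 1 below the other KO numbers of each day, except that number 3 is lower on day 4 in Arl13b; Cggbp1, past the drop, overlaps between the lines on every day.

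Called genes followed the same map. In the edgeR test of KO against WT over the mean of the 5 days, at an adjusted p under 0.05, 147 of 227 members of chromosome 4 (64.8%) were higher in KO and 4 (1.76%) lower. Before the drop on chromosome 16, 89 of 101 (88.1%) were higher and 2 (1.98%) lower; after it, 2 of 19 (10.5%) were higher and 9 (47.4%) lower. Among all 13780 genes tested 26.0% were higher and 26.3% lower, and among the steady genes of the other autosomes 16.3% were higher and 25.1% lower. The median edgeR log2 difference was 0.36 on chromosome 4, 0.62 before and -0.22 after the drop, and 0.01 over all genes tested. Calls follow the ratios described above and add no independent support, since the contrast is the one the chromosomes were picked by. Without the libraries of KO number 1, 55.9% of chromosome 4 members, 91.1% before the drop and 57.9% (lower) after it were called; without those of number 5, 54.2%, 73.3% and 36.8%. Without those of number 3, 31.6% after the drop were called lower. Without WT day 0 replicate 4 and KO day 1 replicate 3 the shares were 66.1%, 86.1% and 52.6%.

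Fewer members passed on single days. On days 0, 1, 2, 4 and 6, 70, 89, 67, 75 and 90 of 347 members were higher in KO by edgeR (20.2%, 25.6%, 19.3%, 21.6% and 25.9%), against 6.46%, 8.10%, 7.64%, 13.3% and 14.5% of all genes tested and 2.87%, 3.56%, 2.76%, 5.01% and 5.46% of steady genes of the other autosomes. Members called lower numbered 3, 4, 3, 4 and 5, against 9.09%, 9.93%, 10.3%, 14.2% and 14.4% of all genes and 7.01%, 6.60%, 6.11%, 9.53% and 10.6% of those steady genes. These daily counts moved with single libraries: without KO day 0 replicate 3, or WT day 0 replicate 1, 3 or 5, day 0 gave 9.51%, 8.93%, 8.36% or 8.65%; without WT day 1 replicate 1 or 5, day 1 fell to 14.1% or 13.0%; without KO day 2 replicate 3 or 5, day 2 fell to 10.7% or 7.49%; without KO day 6 replicate 5, day 6 fell to 17.0%. With the replicate number as a block, 32.3% of members were higher on day 0, and with a block within each day 41.5%, 32.6%, 38.6% and 42.7% were on days 0, 2, 4 and 6. Without KO number 5 on every day the counts fell to 8.36%, 15.6%, 6.34%, 12.1% and 13.8%, and without number 4 days 0, 4 and 6 fell to 11.5%, 14.1% and 15.0%. All KO libraries were above all WT libraries of the day on all 5 days for 12 members, and on at least 1 day for 225. On no day was this so for 122 members, and for 11 all were below on at least 1 day. These counts were not made for other genes, so no share over all genes tested stands beside them. They are thus not a result about the members.

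Pik3r3 was the 1 member whose KO to WT difference changed over the days by edgeR's test of genotype by day (adjusted p = 0.012), 0.288% of members against 7.74% of all genes tested and 1.55% of steady genes of the other autosomes. At an unadjusted p under 0.05 there were 15. With the replicate number as a block within each day 6.05% of members were called, and without WT day 0 replicate 4 and KO day 1 replicate 3 it was 2.02%. Leaving out KO day 1 replicate 1 or WT day 0 replicate 4 gave 0.865%, leaving out KO day 1 replicate 3, KO day 4 replicate 3 or WT day 2 replicate 4 gave 0.576%, and leaving out KO number 5 on every day gave 0.0%. The steadiness rule itself used the WT days, and so limits how far a member's difference can change through WT.

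By role, members of the protein synthesis machinery were among those higher on both chromosomes; with these lists each member was counted by the edgeR test over the mean of days. All 4 cytosolic ribosomal proteins of chromosome 4 (among them Rps20, Rps6 and Rpl11) were called higher, with ratios of 0.52 to 0.83, and both of chromosome 16 before the drop (Rpl35a and Rpl24), with 0.85 and 1.02. Rps20 had 302.4 to 777.1 CPM in WT and 432.9 to 1831 CPM in KO libraries, with its highest values in KO number 3 (638.6 to 1831 CPM) (edgeR adjusted p = 0.00181). Without the libraries of KO number 3, Rpl11 lost its call (edgeR adjusted p = 0.0603). Of the translation factors, Eif3i, Eef2kmt and Eif2b5 were called and Eif4g3 was not, at a ratio of -0.02; Eef2kmt was counted by its symbol and encodes a methyltransferase acting on an elongation factor. Eif3i, too, lost its call without KO number 3 (edgeR adjusted p = 0.259). Mitochondrial ribosomal proteins split along the map: Mrps15 (0.45) and Mrpl40 (0.86) were called higher, Mrpl37 (0.18) was not called, and Mrpl39, past the drop, was called lower (-0.39).

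Ubiquitin enzymes were the largest list. On chromosome 4, 8 of 11 were called higher, with a median ratio of 0.41; on chromosome 16 all 4 before the drop were called higher (Usp7, Ube2l3, Fbxo45 and Rnf168; 0.50 to 0.59). Usp24, a deubiquitinase of chromosome 4, was at -0.29 (47.2 to 196.5 CPM in WT, 25.3 to 198.0 CPM in KO; edgeR adjusted p = 0.0987), and passed in 7 alternatives. The proteasome subunits Psmb2 and Psmd2 were at 0.28 and 0.47; Psmb2 (edgeR adjusted p = 0.0355) lost its call in many alternatives and Psmd2 did not. Transcription machinery was higher in 3 of 4 members (Taf12, Polr2h and Gtf2e1; 0.42 to 0.91), with Med8 at 0.15 not called. Of zinc finger proteins 4 of 5 on chromosome 4 and 3 of 3 before the drop were called higher, among them Zbtb17, the Myc partner Miz-1 (0.63), and Zfp148 (0.65), while Zbtb21, past the drop, was at -0.06. Solute carriers were higher in 4 of 5 members of chromosome 4, including Slc31a1, the copper importer (0.41), and in Slc35a5 of chromosome 16 (0.65). Vps8 and Sec22a, of endosomal and early secretory transport, were at 0.70 and 0.92, and Rab2a of chromosome 4 was at 0.19 and not called. Sdhb, of respiratory complex II, was called higher at 0.61 but not without KO number 3 (edgeR adjusted p = 0.0707). These counts mirror those of the whole chromosomes and say nothing particular about a role.

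The most abundant members of chromosome 4 were not the ones that moved most. Ybx1, a cold-shock RNA-binding protein, had 415.0 to 1017 CPM in WT and 440.3 to 1334 CPM in KO (ratio 0.06), and Hspg2, the basement membrane proteoglycan perlecan, had 488.3 to 1889 and 236.0 to 2206 CPM (ratio 0.04); both changed sign in alternatives. Clic4, a chloride intracellular channel protein, was at -0.13, Cdc42, a small GTPase of cell polarity, at 0.20 and Akr1a1, an aldehyde reductase, at 0.39. Only Akr1a1 of these 5 was called by edgeR (adjusted p = 0.0138), and not without KO number 3 (adjusted p = 0.142). Clic4 (edgeR adjusted p = 0.0539) was called lower in 26 alternatives, among them DESeq2 (adjusted p = 0.0165) and the replicate block (edgeR adjusted p = 0.033).

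Genes on either side of the limits that chose members had ratios above 0. Just inside the steadiness limit, Tle1 and Slc35a5, both with a largest over smallest WT day mean of 1.499, had ratios of 0.49 and 0.65, and just outside it Tstd3 and Tex10 (1.501 and 1.502) had 0.10 and 0.27. Just inside the level limit, Gm11808 and Ccdc191 (5.01 and 5.08 CPM on their lowest day) had 0.19 and 1.22, and just outside it Zfp691 and Pex10 (3.84 and 4.17 CPM) had 0.49 and 0.77. Tested protein-coding genes that the limits left out showed the same map. On chromosome 4 the 584 such genes had a median of 0.34, and on chromosome 16 the 218 before the drop had 0.68 and the 63 after it -0.17, against 0.01 for the 8362 on the other autosomes. Their middle 50% was wider, -0.07 to 0.76 on chromosome 4 and 0.12 to 0.99 before the drop. By KO number, these 218 genes had medians of 0.08, 0.71, 0.79 and 0.87 in numbers 1, 3, 4 and 5, with number 1 lowest and number 5 highest as among the members.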

How the data were processed

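RNA was measured in 39 libraries, 20 WT and 19 KO. The authors deposited 1 table of whole-number read counts per gene for 29980 genes; per the submitters' processing notes the tools were FastQC 0.11.9, STAR 2.7.9, featureCounts 2.0.3 and DESeq2, and the builds GRCm38 and GRCh38 are named without a role. The annotation and the strand setting are not given in the sources used here, so reads of overlapping genes cannot be told apart. Of the values above 0, 64.41% were even, so halved counts were tried as an alternative. 1 column matched no sample and was left out. All 29980 gene IDs matched GENCODE M21, which gave positions.

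CPM was each count over the library total. The counts were tested with edgeR 4.0.16 (quasi-likelihood, filterByExpr, TMM, Benjamini-Hochberg over all 13780 genes tested; limma 3.58.1, R 4.3.3), with 1 mean for each of the 10 groups and 29 residual degrees of freedom; DESeq2 1.42.0 was an alternative. The contrasts were KO against WT over the mean of days and on each day, and genotype by day. SE values come from the variances of log2 CPM within the groups, with a prior count of 2, and not from the edgeR fit. The fit and the SE count libraries of the same number on different days as independent. Before the drop on chromosome 16 the level went with the number. There 95.0% of members were higher in KO number 5 than in number 1 on all 5 shared days. For number 4 against number 1 it was 90.1% on all 4 shared days. Where this holds, SE and p-values over the mean of days can be too small. Segments minimised squared distance with ratios limited to within 1 of the median, a penalty of 3 times ln(n) for each break and at least 10 members a segment. Stretches of 10 Mb were shown with at least 5 members. The scripts were tested on simulated data. Library totals limit the precision of weakly expressed members.

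The members and lists were chosen with earlier results of these data known. Named genes were, for each chromosome, the 5 highest and 5 lowest ratios and the 5 highest WT levels, the members beside a break or at the ends, up to 3 of each list of gene symbols, and genes beside each limit; others are marked as chosen after their values were seen or belong to a counted list. Deviations from group means were correlated between WT and KO libraries of the same number on days 0, 1, 2 and 4 (0.13 to 0.57). On day 6 the correlations ran from -0.02 to 0.19, which overlaps the range of the other days. The labels do not say what a number marks. Alternatives were other scalings, limits, penalties, tests, replicate blocks and left-out libraries. A few members are counted but not described by name.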

Additional observations from a re-analysis of the deposited data

Results flagged for a closer look

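Each group of 4 libraries was checked on 3 medians, those of chromosome 4 and of chromosome 16 before and after the drop. In these 27 checks, 3 single libraries lay far from the rest of their group. Chance alone gives about 1 in 20 checks, but the checks share libraries and are not independent. In the median of the chromosome 16 members before the drop, KO day 0 replicate 1 lay at 0.12 on the log2 scale, below the other KO libraries of that day. In the same median WT day 1 replicate 1 lay at -0.067, below the other WT libraries of day 1. In the median of the 19 members after the drop, WT day 0 replicate 4 lay at -0.48, below the other WT libraries of day 0. Pik3r3 was picked out because its KO to WT difference changed between days (edgeR genotype by day, adjusted p = 0.012), with a log2 ratio of 0.50 on day 0 and 2.18 on day 6.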

How the results depend on the processing

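Medians of both chromosomes and of the stretches before and after the drop kept their direction in every alternative run. They moved by less than the SD over the medians of the 19 KO libraries. That SD was 0.04 for chromosome 4, 0.30 for chromosome 16, 0.32 before and 0.21 after the drop. On chromosome 16 it includes the gap between KO number 1 and the other numbers, which makes it a wide limit. Leaving out 1 library at a time gave 0.40 to 0.41 for chromosome 4, 0.59 to 0.66 for chromosome 16, 0.62 to 0.70 before and -0.22 to -0.14 after the drop. Chromosome 4 had 2 segments in place of 1 with a steadiness limit of 2, with a penalty factor of 2, with KO number 4 alone and without KO number 5, and 1 to 2 when single libraries were left out (2 without WT day 0 replicate 4, WT day 4 replicate 3 or KO day 2 replicate 5). Chromosome 16 had 4 on day 6 alone and 1 with KO number 1 alone.

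Counts on single days were the least stable. Leaving out single libraries gave 8.36% to 29.7% of members higher on day 0, 13.0% to 32.3% on day 1, 7.49% to 22.5% on day 2, 14.7% to 28.2% on day 4 and 17.0% to 28.5% on day 6. Without a filter on low counts days 0 and 6 gave 13.3% and 16.7%. With the replicate number as a block day 0 gave 32.3%, and with a replicate block within each day days 0, 2, 4 and 6 gave 41.5%, 32.6%, 38.6% and 42.7%. Without KO number 4, days 0, 4 and 6 gave 11.5%, 14.1% and 15.0%. Without KO number 5, days 0, 1, 2, 4 and 6 gave 8.36%, 15.6%, 6.34%, 12.1% and 13.8%. Without WT day 0 replicate 4 and KO day 1 replicate 3, days 0 and 6 gave 33.4% and 29.4%. Genotype by day, 0.288% of members, gave 1.15% with DESeq2, 1.44% with the block, 6.05% with the block within each day, 0.576% without KO number 1, 0.0% without KO number 5, 2.02% without those 2 libraries, 0.649% and 2.0% with steadiness limits of 1.3 and 2, 0.0% for genes steady in both lines, 5.08% for genes steady in KO alone, and 0.288% to 0.865% when single libraries were left out. The cause of these moves was not tested.

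Of 78 named genes, 9 changed sign somewhere, none of them called there. Without KO number 3 the edgeR log2 differences were 0.0528 for Son, -0.182 for Atp5o, -0.0904 for Gm11808, -0.031 for Mrpl37, -0.0789 for Med8, -0.183 for Ybx1, 0.0863 for Hspg2 and 0.0503 for Eif4g3. Tmem68 gave -0.00853 with DESeq2 size factors, -0.00858 with DESeq2, -0.0103 with halved counts, -0.00235 with the replicate block, -0.0752 without KO number 1 and -0.0431 without KO number 5. Ybx1 gave -0.000195 with halved counts and -0.00075 with the block within each day, and Hspg2 gave 0.0569 without KO number 5. Without WT day 0 replicate 4 and KO day 1 replicate 3, Atp5o gave -0.00357, Tmem68 -0.0733, Gm11808 -0.0164, Ybx1 -0.102 and Hspg2 0.085. Leaving out single libraries gave -0.0384 to 0.141 for Atp5o, -0.0218 to 0.24 for Gm11808, -0.0473 to 0.0496 for Tmem68, -0.0826 to 0.0723 for Ybx1 and -0.115 to 0.0537 for Hspg2.
Halved counts, leaving out a KO number on every day and using a KO number alone were chosen after seeing the data. Depth limits weakly expressed members.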
